A study of Mus musculus with 6 samples.

Results

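Blood and lymphatic endothelial cells line the vessels of the uterus, and 35 genes that mark their identity are described here, out of 20637 genes listed for each library. The 35 were taken by gene symbol from a list of names; the rule sets no threshold on any value, but the list was drawn up with earlier results of these data known. They cover junction proteins, surface glycoproteins, transcription factors, secreted proteins, signalling genes, selectins and lymphatic markers, while the VEGF and Tie receptors stand outside the list. All 35 symbols were found once in each of the 6 tables.

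Polyadenylated RNA was sequenced from the whole uterus of female mice on postnatal day 21. One group was Nat10 f/f, used as the control (3 libraries), and the other Nat10 d/d, in which Nat10 was deleted (3 libraries). Nat10 encodes an acetyltransferase that acts on cytidines in RNA. The labels give neither the Cre driver, the cells in which deletion took place, the strain nor whether animals were pooled, so it is not known whether endothelial cells themselves carried the deletion. The comparison asks how gene expression differs in the uterus after Nat10 deletion. Values are FPKM, read abundance scaled by transcript length and by the mapped fragments of the library, a unit inferred from the tools named with the samples. The labels do not say that replicates are separate animals. The limma p-values therefore set group differences against variation between these libraries only, with each gene's variance drawn toward that of other genes.

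Endothelial cells are held together by VE-cadherin, PECAM-1 and claudin-5 and carry a coat of sialylated glycoproteins on the side facing the blood. Their identity is kept by ETS, SOXF and basic helix-loop-helix transcription factors, and lymphatic cells add PROX1, which directs lymphatic fate. In the uterus the vessels grow along with the endometrium, and they are remodelled again in each cycle and in pregnancy.

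The targeted gene was lower in all deleted libraries: Nat10 was at 9.95 to 16.4 FPKM in controls and 5.23 to 5.57 in deleted uteri. The libraries differed in relative depth, estimated from their lowest values, by 1.262 times, and absolute depth is unknown. Whole-uterus markers were present throughout, with Acta2 (smooth muscle) at 1530 to 1941, Dcn (stroma) at 646 to 1197 and Epcam (epithelium) at 47.0 to 64.2. Nat10-deleted replicate 2 stood apart in proliferation markers, whose 8 values summed to 159 there, 15.6 and 7.85 in deleted replicates 1 and 3, and 15.8 to 63.6 in controls. The endothelial label held in every library, since Pecam1, Cdh5, Cldn5 and Emcn were all above 39 FPKM. Leukocytes and platelets express some of the same genes. Leukocyte markers were present, with 10 of 12 tested, Ptprc at 2.81 to 5.68, Tyrobp at 16.7 to 23.7 and Lyz2 at 46.1 to 67.0, and the 12 summed to 126.7 to 179.5 in controls and 133.5 to 180.5 in deleted uteri. The platelet markers Ppbp, Gp5, Gp9 and Treml1 were each under 0.3 in all libraries. Of the other platelet and megakaryocyte markers, Gp1bb was at 0.137 to 0.451, Itga2b at 0.967 to 1.498 in controls and 0.599 to 0.842 in deleted uteri, and Pf4, which macrophages also express, at 5.01 to 19.5.

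The endothelial genes were lower on average in deleted uteri, by a modest amount. Of the 35, 34 passed the filter on low values (at least 1 FPKM in at least 3 libraries) and were tested, and Sele did not. The log2 change was below 0 for 29 of the 34 and above 0 for 5, against 43.4% below and 56.6% above among the 12640 genes tested. The median log2 change was -0.23 for the 34 genes and 0.03 for all tested genes, on the log2(FPKM + 1) scale. By library, the median of the 34 genes, set against the mean of the controls, was -0.34, -0.17 and -0.06 in deleted replicates 1, 2 and 3, and 0.03, -0.07 and 0.01 in the controls. Deleted replicate 3 was thus level with the lowest control, and the other deleted libraries lay below it. In bulk tissue, fewer endothelial cells and less RNA per endothelial cell cannot be told apart. Other cell markers differed too: all 10 stromal markers had a log2 change below 0 (median -0.45), and all 7 epithelial markers one above 0 (median 0.26). Without overlap, 3 stromal markers were lower, against 4.6% of all genes, and 3 epithelial markers higher, against 6.12%. Epcam was at 47.0, 50.5 and 56.9 in controls and 62.8, 64.2 and 58.0 in deleted uteri. The part of these cell types in the endothelial difference was not tested.

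No single endothelial gene passed the threshold. In limma (adjusted p under 0.05, Benjamini-Hochberg over all genes tested), 0 of 34 were called, as were 0 of all 12640 genes (0.0%). At an unadjusted p under 0.05, 4 of 34 were lower (Sox7, Aplnr, Nrp2 and Mmrn2) and 0 were higher, against 2.3% lower and 2.68% higher over all genes tested. Every deleted library lay below every control for 8 of 34 genes, against 4.6% of all genes, and above every control for 0 of 34, against 6.12%. The balance over all genes moved with scaling: after quantile normalization 259 genes were higher and 414 lower at an unadjusted p under 0.05, against 339 and 291 without it. The same normalization gave 10 of 34 endothelial genes lower without overlap, against 6.55% of all genes. Leaving out single libraries moved the count of 8 to 15 without control replicate 2 (8.56% of all genes) and to 16 without deleted replicate 3 (14.7%), where fewer libraries also make separation easier. Without deleted replicate 2 it was 11 (14.2%).

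**Figure D1:**
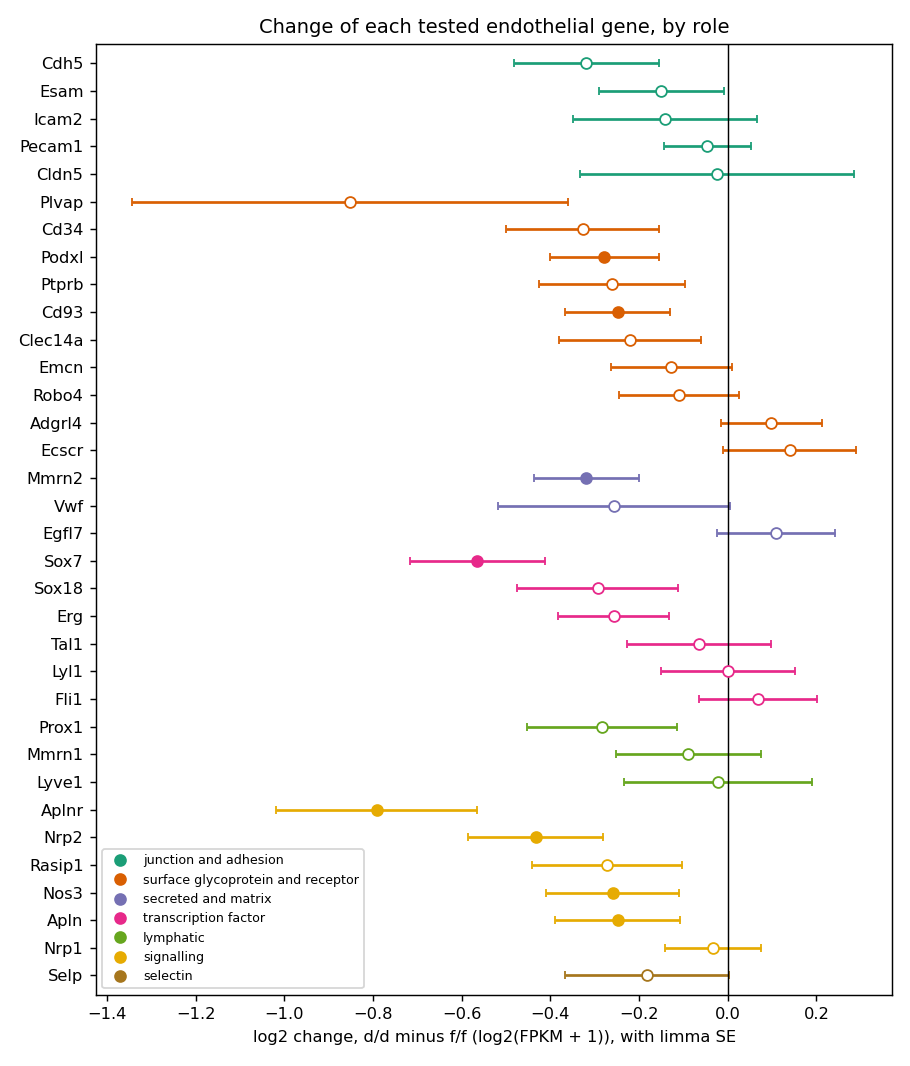
Log2 change of the 34 tested endothelial genes, deleted minus control, on the log2(FPKM + 1) scale, coloured by role; bars are the limma standard error and filled points mark the 8 genes whose groups did not overlap. Most points lie left of 0, with Plvap, Aplnr and Sox7 farthest, and 5 genes lie at or right of 0.

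Baseline levels of the 35 genes spanned a wide range. In controls, 7 genes had a mean above 50 FPKM, 18 between 10 and 50, and 10 below 10. Cd34 was the most abundant, followed by Cldn5, Pecam1 and Cdh5. The control values of Pecam1 and Cdh5 overlapped, and those of Cldn5 lay above both. The transcription factors Tal1 and Lyl1, the lymphatic factor Prox1 and the selectins were at the low end.

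**Figure D2:**
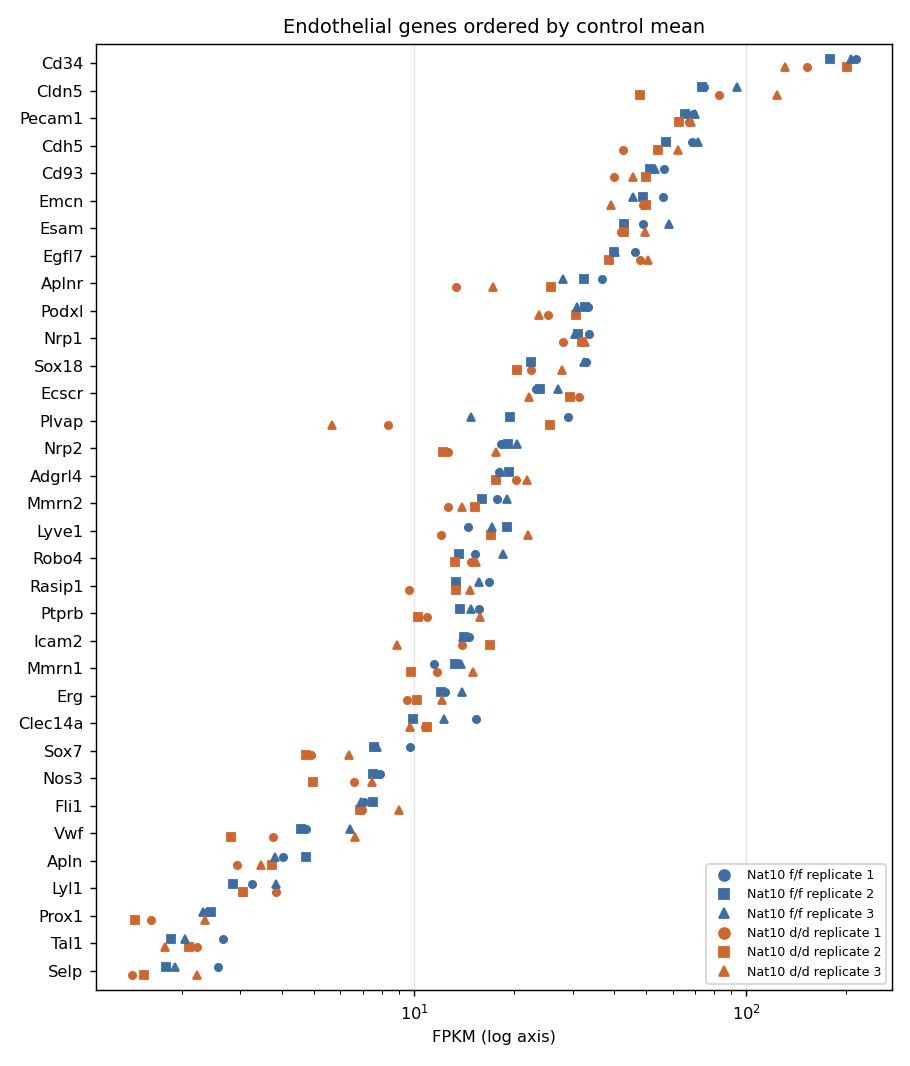
FPKM (log axis) of 34 endothelial genes in each library, ordered by control mean; blue points are Nat10 f/f and orange points Nat10 d/d, with one marker shape per replicate number, and Sele, near 0, is left out. Cd34 is at the top with values of 131 to 214 and Selp at the bottom with 1.42 to 2.58, and the orange points of Plvap and Aplnr reach farthest to the left of their controls.

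Junction and adhesion genes were slightly lower or level, and none of the 5 separated the groups. Pecam1, the adhesion molecule CD31 of endothelial cell contacts, was at 69.0, 65.2 and 70.1 FPKM in controls and 67.2, 62.8 and 68.0 in deleted replicates 1, 2 and 3. The groups overlapped and the means were close, at 68.1 ± 2.59 and 66.0 ± 2.80 (SD, n = 3 each; log2 change -0.05, SE 0.10, limma adjusted p 0.983). Cdh5, which encodes VE-cadherin, was at 68.7, 57.3 and 71.5 in controls and 42.5, 54.1 and 62.2 in deleted uteri. Its deleted replicates 1 and 2 lay below every control and replicate 3 within the control range (80.4% of the control mean, log2 change -0.32, SE 0.16, limma adjusted p 0.922). With 1 library left out, the Cdh5 change ran from -0.44 (without deleted replicate 3) to -0.17 (without deleted replicate 1). The difference between the changes of Pecam1 and Cdh5 was not tested.

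Cldn5, the tight junction claudin of endothelium, varied more among deleted libraries than any other of the junction genes. It was at 74.7, 73.8 and 93.6 in controls and 82.5, 48.0 and 123 in deleted replicates 1, 2 and 3. Deleted replicate 2 was the lowest of all 6 libraries and replicate 3 the highest, so the means of 80.7 ± 11.2 and 84.7 ± 37.8 (SD, n = 3 each) did not differ beyond this spread (limma log2 change -0.02, adjusted p 0.996). The direction turned with the libraries used: the log2 change was 0.33 without deleted replicate 2. Esam, an immunoglobulin-type junction molecule, had means of 50.1 and 44.8, and Icam2, a ligand for leukocyte integrins, 14.3 and 13.3, with overlapping groups.

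Among the 10 surface glycoproteins and receptors, 8 had a log2 change below 0 and 2 above 0, and the groups separated for Podxl and Cd93. Podxl encodes podocalyxin, a sialomucin of the luminal surface. It was at 33.3, 32.7 and 30.9 in controls and 25.3, 30.7 and 23.8 in deleted replicates 1, 2 and 3. Deleted replicate 2 was just under the lowest control, and the means were 32.3 ± 1.23 and 26.6 ± 3.60 (SD, n = 3 each; log2 change -0.28, SE 0.12, limma adjusted p 0.922). Podxl is also expressed by mesothelium, where Msln was at 4.08 to 6.24 in controls and 2.83 to 3.67 in deleted uteri, Lrrn4 at 2.56 to 3.70 and 1.10 to 2.24, and Wt1, with overlap, at 34.7 to 39.3 and 35.7 to 43.5. Of the 7 mesothelial markers, Msln and Lrrn4 were lower without overlap (4.6% of all genes). The 7 summed to 226 to 268 in controls and 219 to 266 in deleted uteri, most of it Krt19, also an epithelial keratin, at 156 to 204. The part of mesothelial cells in the Podxl difference was not tested.

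Cd93, a C-type lectin-like receptor of endothelial cells, was at 56.7, 51.3 and 53.0 in controls and 39.9, 50.1 and 45.5 in deleted uteri. All deleted values were below all controls, with replicate 2 again nearest to them. Mmrn2, described further on, encodes a matrix ligand of both CD93 and CLEC14A. Clec14a itself overlapped, with means of 12.5 ± 2.73 (control) and 10.5 ± 0.680 (deleted; SD, n = 3 each).

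Cd34, the most abundant of the list, encodes a sialomucin carried by endothelium and also by connective tissue cells. It was at 214, 179 and 206 in controls and 152, 200 and 131 in deleted replicates 1, 2 and 3. Deleted replicates 1 and 3 lay below every control and replicate 2 within their range (80.6% of the control mean, log2 change -0.33, SE 0.17, limma adjusted p 0.922). With 1 library left out, the Cd34 change ran from -0.495 (without deleted replicate 2) to -0.189 (without deleted replicate 3). Plvap, the diaphragm protein of fenestrated endothelium, had the largest fitted change of the list and also a wide spread. It was at 29.0, 19.5 and 14.8 in controls and 8.34, 25.6 and 5.65 in deleted uteri. Here too replicates 1 and 3 were below all controls and replicate 2 was second only to control replicate 1 (log2 change -0.85, SE 0.49, limma adjusted p 0.922). With 1 library left out, the Plvap change ran from -1.44 (without deleted replicate 2) to -0.44 (without deleted replicate 3). Plvap is singled out after its values were seen.

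The remaining surface genes overlapped between groups. Ptprb, the phosphatase VE-PTP that acts on VE-cadherin and TIE2, had means of 14.8 and 12.3. Emcn, the sialomucin endomucin, had means of 50.3 and 46.1, and the guidance receptor gene Robo4 15.8 and 14.5. Ecscr, an endothelial surface protein, and Adgrl4, an adhesion G protein-coupled receptor, had higher means in deleted uteri, at 24.8 against 27.7 and 18.5 against 19.9 (log2 changes 0.14 and 0.10).

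**Figure D3:**
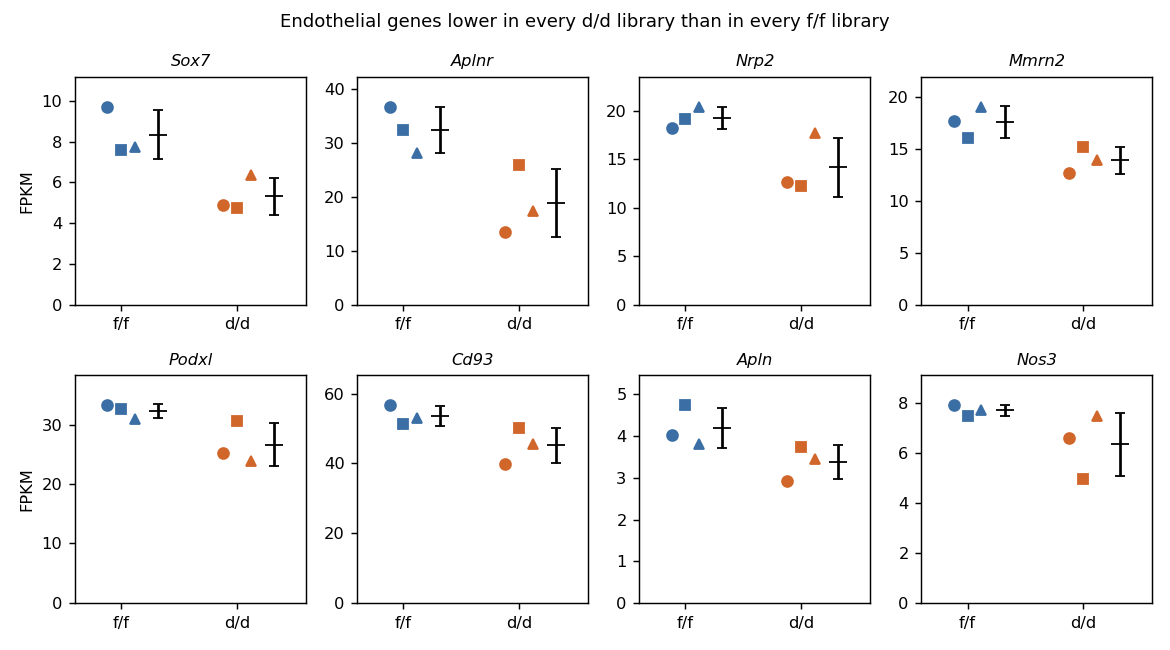
FPKM of the 8 endothelial genes for which every deleted library lay below every control; each point is a library (circle, square and triangle for replicates 1, 2 and 3), and the black bar gives mean ± SD. The gap is narrow for Nos3, Podxl, Cd93 and Apln and widest relative to the control level for Sox7 and Aplnr.

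Of the 6 transcription factors, Sox7 was lower in every deleted library and its SOXF partner Sox18 and the ETS factor Erg were lower in replicates 1 and 2. Sox7 (ENSMUSG00000063060, chr14:63943673-63950732) was at 9.71, 7.58 and 7.75 in controls and 4.88, 4.73 and 6.37 in deleted uteri. The groups did not overlap, and the deleted mean of 5.33 ± 0.905 was 63.8% of the control mean of 8.35 ± 1.19 (SD, n = 3 each). The log2 change was -0.57 (SE 0.15), with an unadjusted limma p of 0.00661 and an adjusted p of 0.922. An exact permutation of the labels gave 0.1, the smallest two-sided p that 3 libraries against 3 allow, for each of the 8 separated genes.

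Sox18, which acts with Sox7 in vessel development, was at 32.9, 22.6 and 32.6 in controls and 22.5, 20.5 and 27.9 in deleted uteri, so the groups overlapped through replicate 3. The third SOXF gene, Sox17, stood outside the list and is also expressed in uterine epithelium; its means were 89.0 ± 5.04 and 84.3 ± 23.4 (SD, n = 3 each). Erg, an ETS factor needed to keep endothelial identity, was at 12.4, 12.1 and 14.0 in controls and 9.53, 10.2 and 12.1 in deleted uteri. Its replicate 3 was within the control range by a narrow margin (82.7% of the control mean; log2 change -0.26, SE 0.13).

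Fli1, the other ETS factor, had a slightly higher mean in deleted uteri, at 7.62 against 7.18, with replicate 3 the one deleted library above all controls. The basic helix-loop-helix factors Tal1 and Lyl1, which act in blood and endothelial cells, were low and level: Tal1 had means of 2.19 and 2.04, and Lyl1 3.32 in each group. The exons of Lyl1 overlap Nfix on the opposite strand, an abundant gene at 86.2 to 92.1 in controls and 61.4 to 75.9 in deleted uteri, and without stated strandedness reads of the pair cannot be told apart.

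Among the secreted and matrix genes, Mmrn2, multimerin-2 of the vascular matrix, was at 17.8, 16.1 and 19.1 in controls and 12.7, 15.3 and 13.9 in deleted uteri. The groups did not overlap, and the means were 17.6 ± 1.52 and 14.0 ± 1.30 (SD, n = 3 each; log2 change -0.32, SE 0.12, unadjusted limma p 0.0291, adjusted p 0.922). Vwf, the platelet-binding clotting factor stored in endothelial granules, was at 4.72, 4.55 and 6.42 in controls and 3.76, 2.80 and 6.64 in deleted uteri. Its deleted libraries spanned the whole range, with the lowest and the highest value of all 6. Egfl7, a secreted factor that shapes vessel tubes, had a higher mean in deleted uteri, at 45.8 ± 6.18 against 42.2 ± 3.40 (SD, n = 3 each). Exons of Egfl7 overlap Agpat2 on the opposite strand, which was at 12.9 to 18.1 and 16.5 to 19.4.

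The signalling genes held 4 of the 8 separated genes: the apelin receptor Aplnr, its ligand Apln, Nrp2 and Nos3. Apelin is made by sprouting endothelial tip cells, and its receptor is found on venous and growing vessels. Aplnr (ENSMUSG00000044338, chr2:85136225-85139923) was at 36.7, 32.4 and 28.0 in controls and 13.4, 25.8 and 17.3 in deleted replicates 1, 2 and 3. All deleted values lay below all controls, but replicate 2 was nearer to them than the other deleted libraries. The means were 32.4 ± 4.32 and 18.8 ± 6.38 (SD, n = 3 each), or 58.2% of control (log2 change -0.79, SE 0.23, unadjusted limma p 0.00913, adjusted p 0.922). With 1 library left out, the Aplnr change ran from -1.03 (without deleted replicate 2) to -0.58 (without deleted replicate 1). Apln was at 4.03, 4.74 and 3.81 in controls and 2.93, 3.73 and 3.46 in deleted uteri, a narrow separation (80.4% of the control mean; log2 change -0.25, SE 0.14, limma adjusted p 0.922).

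The neuropilins are co-receptors for VEGFs and semaphorins. Nrp2 (ENSMUSG00000025969, chr1:62703285-62818695), the one used by lymphatic and venous endothelium, was at 18.2, 19.1 and 20.4 in controls and 12.6, 12.2 and 17.7 in deleted uteri. Replicate 3 was nearest to the controls, and the means were 19.3 ± 1.10 and 14.2 ± 3.05 (SD, n = 3 each; log2 change -0.43, SE 0.15, unadjusted limma p 0.0235, adjusted p 0.922). Nrp1 was at 33.6, 31.1 and 30.5 in controls and 28.2, 32.1 and 32.7 in deleted uteri, with overlapping groups (log2 change -0.03, SE 0.11). The difference between the neuropilins' changes was not tested. Both are also expressed outside vessels, in stroma and muscle.

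Nos3, the endothelial nitric oxide synthase, was at 7.92, 7.50 and 7.72 in controls and 6.61, 4.98 and 7.48 in deleted uteri. Replicate 3 was just under the lowest control and replicate 2 was well below (82.4% of the control mean, log2 change -0.26, SE 0.15, limma adjusted p 0.922). With 1 library left out, the Nos3 change ran from -0.37 (without deleted replicate 3) to -0.12 (without deleted replicate 2). Its exons overlap Atg9b on the opposite strand, which was at 0.126 to 0.268 in controls and 0.305 to 0.446 in deleted uteri. Rasip1, a RAS-interacting protein needed for vessel lumens, overlapped between groups, with means of 15.3 ± 1.77 and 12.6 ± 2.64 (SD, n = 3 each).

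Promoter letters of 4 of these genes are shown because Apln and Nrp2 are the only separated genes with an entry in the RefSeq promoter table (18 of 35 matched), Nrp1 is the counterpart of Nrp2, and Egfl7 holds the longer ETS motif. Capitals mark GGAA, the core bound by ETS factors such as ERG and FLI1, or its reverse complement TTCC. Each stretch lies upstream of a RefSeq start on GRCm38.p6, without bases of an annotated exon of the gene. Those of Nrp1 and Egfl7 lie inside the annotated genes, which start at chr8:128358604 and chr2:26580014. Egfl7 has further RefSeq starts, whose windows are not shown.
Apln (chrX:48034854-48035103, minus strand): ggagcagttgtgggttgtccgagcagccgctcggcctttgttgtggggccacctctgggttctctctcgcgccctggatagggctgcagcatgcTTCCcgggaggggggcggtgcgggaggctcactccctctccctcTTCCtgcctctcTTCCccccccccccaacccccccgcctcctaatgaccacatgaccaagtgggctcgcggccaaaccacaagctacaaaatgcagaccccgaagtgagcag
Nrp2 (chr1:62703067-62703284, plus strand): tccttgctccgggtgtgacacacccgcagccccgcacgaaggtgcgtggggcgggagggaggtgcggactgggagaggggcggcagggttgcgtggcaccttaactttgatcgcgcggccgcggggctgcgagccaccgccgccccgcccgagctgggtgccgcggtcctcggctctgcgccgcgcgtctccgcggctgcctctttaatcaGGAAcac
Nrp1 (chr8:128358823-128359072, plus strand): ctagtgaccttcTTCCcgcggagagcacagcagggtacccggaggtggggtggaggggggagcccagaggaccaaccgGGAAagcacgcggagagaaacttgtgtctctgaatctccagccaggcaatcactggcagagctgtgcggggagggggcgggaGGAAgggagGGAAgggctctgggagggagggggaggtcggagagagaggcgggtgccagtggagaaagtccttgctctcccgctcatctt
Egfl7 (chr2:26580833-26581055, plus strand): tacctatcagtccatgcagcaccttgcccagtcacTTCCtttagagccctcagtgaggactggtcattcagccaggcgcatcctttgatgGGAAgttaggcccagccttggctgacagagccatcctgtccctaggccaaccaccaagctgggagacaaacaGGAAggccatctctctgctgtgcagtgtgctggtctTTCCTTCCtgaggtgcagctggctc

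The core occurs 3 times in the Apln stretch, once in that of Nrp2, 4 times in that of Nrp1 and 5 times in that of Egfl7. Over windows of 250 bases before the start, GGAA on either strand was found in 22 of 24 windows of endothelial genes (91.7%) and 93.4% of all 32851 windows, so its presence does not set these genes apart. The longer GGAAGT was in 12.5% and 19.7%, with matches for Egfl7 and Mmrn1. AGATAA, letters bound by zinc-finger factors of blood and vessel cells, was in 8.33% and 9.99%, with matches for Erg and Tal1. Both motifs were searched on both strands, and GGAAGT contains the shorter core. These matches are descriptions of letters, not of bound sites.

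The selectins are made by activated endothelium to catch leukocytes. Sele, for E-selectin, was listed at 0, 0.0636 and 0.0546 in controls and 0.0866, 0.122 and 0.111 in deleted uteri, too low in every library to be tested. Selp, for P-selectin, was at 2.58, 1.79 and 1.90 in controls and 1.42, 1.54 and 2.22 in deleted uteri. Deleted replicates 1 and 2 lay below all controls and replicate 3 among them (log2 change -0.18, SE 0.18).

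Lymphatic markers showed no separation between groups, and Prox1 came nearest. Prox1 was at 2.38, 2.46 and 2.31 in controls and 1.61, 1.44 and 2.36 in deleted uteri. Deleted replicates 1 and 2 lay well under a narrow control range, and replicate 3 inside it (means 2.38 ± 0.0730 and 1.80 ± 0.486, SD, n = 3 each; log2 change -0.28, SE 0.17, limma adjusted p 0.922). Lyve1, a hyaluronan receptor of lymphatic cells and some macrophages, was at 14.6, 19.1 and 17.2 in controls and 12.04, 17.1 and 22.1 in deleted uteri, the lowest and the highest value both in deleted libraries (log2 change -0.02). The macrophage marker Adgre1 was at 3.38, 6.10 and 6.85 in controls and 4.63, 3.32 and 5.03 in deleted uteri, and the 12 leukocyte markers summed to 126.7 to 179.5 and 133.5 to 180.5. The part of macrophages in the Lyve1 values was not tested. Mmrn1, multimerin-1 of lymphatic cells and platelets, was at 11.5, 13.3 and 13.8 in controls and 11.7, 9.76 and 15.1 in deleted uteri, again with overlap (log2 change -0.09).

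Of 7 other lymphatic genes, 6 were tested, 5 with a log2 change below 0 (43.4% of all genes). Ccl21a alone was lower at an unadjusted p under 0.05 (2.3% of all genes) and alone separated the groups (4.6%). Ccl21a, the chemokine by which lymphatic vessels draw in dendritic cells, was at 79.3, 87.1 and 84.1 in controls and 68.0, 60.9 and 70.0 in deleted uteri (79.4% of the control mean; log2 change -0.33, SE 0.11, limma adjusted p 0.922). Near-identical Ccl21 copies exist in the mouse genome, so its value is uncertain.

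The deleted libraries did not agree on which endothelial genes were low. Deleted replicate 1 was below every control for 22 of 34 genes, replicate 2 for 23 and replicate 3 for 15, against 31.9%, 33.1% and 25.5% of all tested genes. The counts above every control were 3, 2 and 8 of 34 in deleted replicates 1, 2 and 3, against 34.2%, 38.4% and 34.0% of all tested genes. The spread was wider among deleted than among control libraries for 28 of the 34 genes, with a median SD of 0.209 against 0.136 on the log2 scale, as over all genes (0.208 against 0.123). Cdh5, Esam, Erg, Sox18, Ptprb, Vwf, Prox1 and Selp were below every control in replicates 1 and 2 but not in replicate 3, a course taken by 23.5% of the 34 genes and 10.04% of all genes; the margin was under 0.1 FPKM for Esam in replicate 2 and for Sox18 in replicate 1. Plvap, Cd34 and Icam2 were below every control in replicates 1 and 3 but not in replicate 2 (8.82% of the 34 and 9.79% of all genes), and for Icam2 replicate 1 was only just below. These courses were described after the values were seen.

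**Figure D4:**
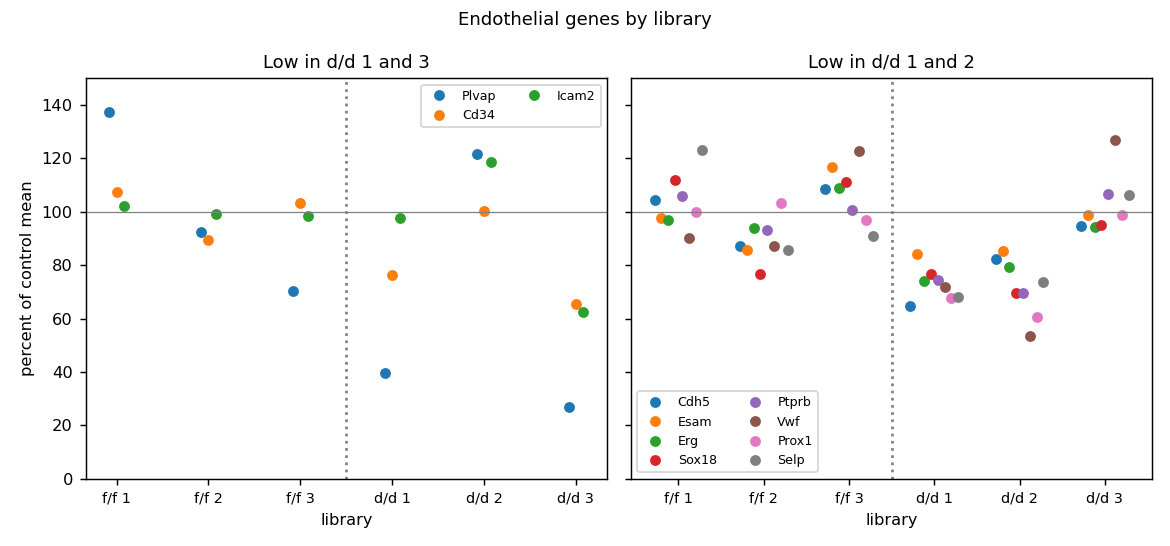
Endothelial genes as percent of their control mean in each library, with controls left and deleted libraries right of the dotted line; points are single libraries, and the panels hold the genes below every control in deleted replicates 1 and 3 (left) or 1 and 2 (right). Plvap is at 8.34 and 5.65 FPKM in deleted replicates 1 and 3 against 25.6 in replicate 2, while Vwf is at 2.80 in replicate 2 and 6.64 in replicate 3.

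The stromal markers did not share one course. Stromal collagen Col1a1 was at 677 to 765 in controls and 394, 984 and 361 in deleted replicates 1, 2 and 3, and Col15a1, of vessel and stromal basement membranes, at 92.5 to 111 and 51.6, 98.4 and 43.9, both low in deleted replicates 1 and 3 like Plvap and Cd34. Col3a1, Vim and Lum were likewise below every control in those libraries but not in replicate 2. Dcn, a stromal proteoglycan, was lowest in deleted replicate 2 instead, at 1033 to 1115 in controls and 1160, 646 and 1197 in deleted uteri, as did Pdgfra, at 65.1 to 91.7 and 58.3, 39.5 and 77.3. Mfap5, Wnt5a and Tcf21 were below every control in all deleted libraries. The 10 stromal markers summed to 3749 to 4350 in controls and 3097, 4235 and 3017 in deleted uteri. The proliferation marker Mki67 was at 2.47 to 10.7 in controls and 2.30, 24.0 and 1.28 in deleted uteri. Whether stromal or cycling cells account for the course of Plvap and Cd34 was not tested.

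Most endothelial genes outside the list also had a log2 change below 0, against 43.4% of all genes tested, whose median was 0.03. All 5 VEGF and Tie receptors did (median -0.39), and 2 of them, Kdr and Flt4, were lower at an unadjusted p under 0.05, against 2.3% of all genes. The groups separated for Kdr, Flt1 and Tek, all lower (4.6% of all genes), and overlapped for Flt4 and Tie1. Kdr was at 27.38, 27.36 and 28.09 in controls and 18.51, 19.83 and 20.55 in deleted uteri. Its log2 change was -0.47 (SE 0.10), with an unadjusted limma p of 0.00156 and an adjusted p of 0.806. Of 28 further endothelial genes 25 were tested: 22 had a log2 change below 0, 4 were lower at an unadjusted p under 0.05, and the median was -0.11, with 0 called in limma. Summed FPKM over the 33 genes was 849.8 to 889.5 in controls and 789.3, 736.9 and 933.0 in deleted uteri. Deleted replicate 3 thus had the highest sum of all 6, but a few abundant genes weigh most in it. Tm4sf1, Gata2 and Sox17, the 3 most abundant, were at 172, 119 and 110 there, each above every control. The 35 genes of the list itself summed to 925 to 1038 in controls and 825.9, 889.2 and 908.2 in deleted uteri. The 4 of the 25 lower at an unadjusted p under 0.05 were Stab1, Tspan18, Eng and Shank3. Stab1, a scavenger receptor, had control and deleted means of 16.5 ± 2.72 and 10.7 ± 2.25 (SD, n = 3 each, as for the next 3). Tspan18 had 35.8 ± 3.45 and 27.9 ± 0.506, and Eng, the TGF-beta co-receptor endoglin, 51.4 ± 4.75 and 38.6 ± 6.79. Shank3 had 8.35 ± 0.540 and 6.55 ± 0.414. The groups did not overlap for these 4 and for Pcdh12, at 4.44 to 5.44 in controls and 2.76 to 4.09 in deleted uteri. That makes 5 of the 25 tested, against 4.6% of all genes. Others of the 25 were near level, among them Ramp2, Calcrl and Dll4 with log2 changes of -0.05, -0.09 and -0.02, and 3 were above 0.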

How the data were processed

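The authors deposited 1 table per library with FPKM values; the unit is not named in the headers and was inferred from Cufflinks, named with HISAT2 2.2.1, Cufflinks 2.2.1 and build mm10 in the submitters' processing notes. Annotation and strandedness are not given in the sources used here. Identifiers matched GENCODE M21 for 20558 of 20637 genes. Values were analysed as log2(FPKM + 1). Genes with at least 1 FPKM in at least 3 libraries (12640) were tested in 1 fit with limma 3.58.1 in R 4.3.3 (eBayes with trend, group as the only term, two-sided p-values, Benjamini-Hochberg over all tested genes). Fold changes understate those of low genes. The fit was also run on simulated data with the same spread in both groups and larger changes than any tested endothelial gene had. That run therefore does not show the error rate or power of the fit for these data. Count tests did not apply, and the protein comparison planned for gene pairs was not run. Relative depth was the most frequent ratio of low values between libraries; counting intervals need absolute depth and are not given. All 35 genes are accounted for; values in every library are given for genes whose groups separated, the 6 with the smallest p, the 3 most abundant, the lymphatic ones and others singled out. Of context lists, the 3 genes with the smallest p or defining markers are named. Members and lists were chosen with earlier results of these data known. Alternatives covered scaling, pseudocount, filter, trend, replicate block and leaving out each library; array quality weights were added after seeing the data.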

Additional observations from a re-analysis of the deposited data

How the results depend on the processing

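The median log2 change of the endothelial genes stayed between -0.31 and -0.17 under all 15 alternatives, and the direction held in each of them for 25 of 34 genes. With quantile normalization 7 genes had an unadjusted p under 0.05, in place of 4 (5.32% of all genes in place of 4.98%). With no filter on low values Sele entered the fit, and 1 gene was higher without overlap (5.72% of all genes). Array quality weights, chosen after seeing the data, gave 3 called genes and 16 at an unadjusted p under 0.05, beside 316 called and 29.5% at that p among all genes: Aplnr (log2 change -1.16, limma adjusted p 0.0386; range over its alternatives 0.0386 to 1.0), Sox7 (-0.67, 0.0422; 0.0422 to 1.0) and Nrp2 (-0.51, 0.0478; 0.0478 to 1.0). These weights gave deleted replicate 1 a weight of 3.74 and deleted replicate 2 one of 0.224. Leaving out 1 library, 2 to 10 genes had an unadjusted p under 0.05 (2 without control replicate 3 or deleted replicate 1, against 2.81% and 2.75% of all genes, 7 without deleted replicate 2, against 13.6%, and 10 without deleted replicate 3, against 11.1%), 8 to 16 were lower without overlap (6.06% to 14.7% of all genes), 0 to 2 higher without overlap (8.91% to 17.5%), and 0 were called, against 12 of all genes without deleted replicate 2 and 0 in the other fits.

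The replicate block gave 3 genes at an unadjusted p under 0.05 (5.74% of all genes) and 0 called. Same-numbered libraries share only a number: their deviations from the group means correlated at -0.341, -0.029 and 0.1. Direction changed in 9 genes, all with a log2 change between -0.14 and 0.07. For Lyl1 the log2 change was -0.037 after quantile normalization, -0.028 after median centring, -0.032 after upper-quartile scaling, and -0.085 to 0.087 over the libraries left out. Array quality weights turned Cldn5 (0.076) and Fli1 (-0.001). Leaving out 1 library gave ranges of -0.344 to 0.328 for Cldn5, -0.047 to 0.129 for Fli1, -0.328 to 0.1 for Icam2, -0.219 to 0.194 for Lyve1, -0.241 to 0.047 for Mmrn1, -0.073 to 0.032 for Nrp1, -0.202 to 0.001 for Robo4 and -0.141 to 0.039 for Tal1. The cause was not tested. Depth limits low genes such as Sele most, and since absolute depth is unknown no floor can be given.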

Other observations

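Pericytes, the mural cells that wrap capillaries, were represented by 10 markers, of which 6 had a log2 change below 0 and 4 above 0 (median -0.17; 43.4% of all genes were below 0), with 0 called in limma and 1 lower at an unadjusted p under 0.05 (2.3% of all genes). That one was Anpep, an aminopeptidase, with means of 232 ± 29.5 (control) and 181 ± 27.6 (deleted; SD, n = 3 each). Notch3, the Notch receptor of mural cells, was at 19.5, 19.3 and 21.9 in controls and 11.2, 18.6 and 17.6 in deleted uteri. It was the only 1 of the 10 without overlap (4.6% of all genes), with an unadjusted limma p of 0.0888. Rgs5, an abundant pericyte gene, was at 96.9 to 137 in controls and 114 to 135 in deleted uteri.

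Red cell markers differed widely between libraries. Their sum was 5582, 2629 and 852 in controls and 709, 1723 and 1111 in deleted uteri, with control replicate 1 highest. Fat markers summed to 41.6 in control replicate 1 and 0.390 to 12.2 elsewhere. The median log2 change of the endothelial genes was -0.18 without control replicate 1.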
